A study of Rattus norvegicus with 26 samples.

Results

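Intermediate doses of PCB126, 0.1 and 1 nM, were compared in primary rat hepatocytes with vehicle and the dose below them. PCB126 is a coplanar chlorinated biphenyl that acts on the aryl hydrocarbon receptor (AhR) as TCDD, a chlorinated dioxin, does. Of the 26 arrays of the series, 6 entered this comparison. They were chosen by dose and pool from their labels: 3 arrays at 0.1 or 1 nM, which were 0.1 nM in pool 1, 0.1 nM in pool 2 and 1 nM in pool 2, against 3 baseline arrays, which were vehicle in pool 1, vehicle in pool 2 and 0.01 nM in pool 2. The baseline therefore holds a low dose of the chemical as well as the vehicle. The 2 arrays at 0.001 nM PCB126 were left out by the rule because the array labelled 0.001 nM of pool 2 goes against its label: its log2 value of Cyp1a1 was 10.80, against 3.21 in pool 1 at that dose and 7.91 at 0.01 nM in pool 2. Results of models of all arrays are given with and without these 2 arrays.

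The cells were hepatocytes of female Sprague Dawley rats, cultured from 2 pools of 3 animals each and exposed for 48 hours in 0.5% DMSO, the vehicle, which the controls received alone. Each pool is a mixture of the cells of its animals and stands for 1 biological unit, and each dose has at most 1 array per pool. The p values of the 6 arrays therefore rest on a spread that also holds differences between the doses joined in an arm. Part of that spread may be technical, and it does not measure the spread between animals. The dose of 1 nM was measured in pool 2 alone, as was 0.01 nM. Values are the authors' log2 expression values, on which a difference of 1 is a factor of 2. The array medians of the 6 arrays ran from 3.54 to 3.90, and the hepatocyte markers were bright: albumin (Alb) was at 14.22 to 14.45 in all 6, and 14 of the 15 hepatocyte markers listed were on the array, all of them above the filter on dim probe sets. Lymphocyte and red cell markers averaged 3.35 to 4.15 and endothelial markers 3.52 to 4.17 in the 6 arrays, close to the array medians. Macrophage markers averaged 4.90 to 5.51, cholangiocyte markers 5.02 to 6.03 and stellate cell markers 6.25 to 6.52, above the medians. Of these lists 3 of 17, 4 of 14, 8 of 20, 5 of 14 and 12 of 20 markers were measured, in the same order. On the array were 11, 8, 12, 9 and 18 of them, and the others of these were dropped as dim. The averages cover only markers that passed the filter, so levels near or above the medians were largely set by it.

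The AhR is a ligand-activated transcription factor held in the cytosol by chaperones. After binding a dioxin-like ligand it moves to the nucleus, pairs with Arnt and binds a short DNA core in the regulatory regions of its target genes. In liver it is best known for inducing the cytochrome P450 genes Cyp1a1, Cyp1a2 and Cyp1b1 and a battery of other drug-metabolising enzymes, among them Nqo1, a quinone reductase, and Aldh3a1, an aldehyde dehydrogenase.

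The stretches of 250 bases before the transcription start of Cyp1a2, Nqo1 and Cyp1b1 are shown because Cyp1a2 and Nqo1 were already high at 0.1 nM and Cyp1b1 was not. They are RefSeq sequences of the rat build GRCr8, written 5′ to 3′ on the strand of the gene, with the AhR core GCGTG, or CACGC where it lies on the other strand, in capitals. The Cyp1a2 stretch is chr8:66978150-66978399 on the minus strand, that of Nqo1 is chr19:52220268-52220517 on the minus strand and that of Cyp1b1 is chr6:21094315-21094564 on the plus strand.
Cyp1a2: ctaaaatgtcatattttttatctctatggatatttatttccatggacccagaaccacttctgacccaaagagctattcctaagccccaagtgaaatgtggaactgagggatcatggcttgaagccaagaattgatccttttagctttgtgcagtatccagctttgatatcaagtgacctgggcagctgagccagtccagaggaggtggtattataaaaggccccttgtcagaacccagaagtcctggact
Nqo1: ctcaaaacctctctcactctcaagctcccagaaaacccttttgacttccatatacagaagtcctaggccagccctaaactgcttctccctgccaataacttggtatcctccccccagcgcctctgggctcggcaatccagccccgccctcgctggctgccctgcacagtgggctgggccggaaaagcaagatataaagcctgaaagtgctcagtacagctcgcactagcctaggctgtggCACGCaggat
Cyp1b1: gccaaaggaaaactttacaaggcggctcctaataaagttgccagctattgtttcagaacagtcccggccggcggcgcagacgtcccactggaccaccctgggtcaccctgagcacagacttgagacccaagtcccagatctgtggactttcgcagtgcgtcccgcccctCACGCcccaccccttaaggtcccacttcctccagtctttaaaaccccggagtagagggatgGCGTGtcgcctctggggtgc
The Cyp1b1 stretch holds the core at 81 and at 20 bases before the start, once on each strand, and the matches do not overlap. The Nqo1 stretch holds it once, 10 bases before the start, and the Cyp1a2 stretch does not hold these letters. Of 33469 promoters in the table, 25.9% held the core on either strand in the same 250 bases, so a match is common, and of the 14 genes with the largest differences below that the table lists, 3 held it, Igfbp1, Nqo1 and Zfp36. The table lists no promoter of Cyp1a1 or Aldh3a1.

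Cyp1a1, the P450 that is the classic readout of AhR activation, was above vehicle from the lowest dose of the comparison. Its log2 value was 3.45 with vehicle and 11.15 at 0.1 nM in pool 1. In pool 2 it was 3.28 with vehicle, 7.91 at 0.01 nM, 10.84 at 0.1 nM and 11.79 at 1 nM. Every dosed array was above both vehicle arrays, and the array at 0.01 nM lay midway between the vehicle and the higher doses. Since that array is part of the baseline, the difference between the arms, 6.38 ± 1.26 (SE), understates the difference from vehicle. The probe set of Cyp1a1 is of a type that can share sequence with related genes.

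Cyp1a2, which in liver metabolises caffeine and aromatic amines, was far above vehicle from 0.1 nM. Its values were 3.54 with vehicle and 9.33 at 0.1 nM in pool 1. In pool 2 they were 3.39 with vehicle, 4.14 at 0.01 nM, 8.29 at 0.1 nM and 10.28 at 1 nM. All intermediate arrays were far above all baseline arrays, among which the array at 0.01 nM was the highest. The difference was 5.61 ± 0.52 (SE), with the smallest adjusted p of all probe sets, 0.120 (limma, Benjamini-Hochberg), and the same gene's other 2 probe sets gave 5.12 and 4.17.

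Nqo1 stood at 7.05 with vehicle and 8.71 at 0.1 nM in pool 1. In pool 2 it was 7.70 with vehicle, 7.94 at 0.01 nM, 9.21 at 0.1 nM and 9.85 at 1 nM. The arms did not overlap and differed by 1.69 ± 0.19 (SE), or 3.24-fold. A second, dim probe set of the gene differed by 0.40 ± 0.37.

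Cyp2a1, a steroid 7-alpha-hydroxylase of rat liver, was at 2.44 with vehicle and 7.06 at 0.1 nM in pool 1. In pool 2 it was 3.74 with vehicle, 4.63 at 0.01 nM, 6.20 at 0.1 nM and 7.85 at 1 nM. Again all 3 intermediate arrays were above all 3 baseline arrays, and the difference was 3.43 ± 0.58 (SE). No fold is given for Cyp1a1, Cyp1a2 or Cyp2a1, because at least 1 vehicle value of each lies below 3.71. That is the value used to filter dim probe sets, below which the processing can distort differences.

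Cyp1b1 and Aldh3a1 behaved otherwise, with a high value in the array at 1 nM alone. Cyp1b1, a P450 that metabolises estrogens and polycyclic hydrocarbons, was at 4.66 with vehicle and 4.27 at 0.1 nM in pool 1. In pool 2 it was 3.70 with vehicle, 3.78 at 0.01 nM, 3.81 at 0.1 nM and 9.0 at 1 nM. Both arrays at 0.1 nM lay among the baseline arrays.

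Aldh3a1 was at 2.30 with vehicle and 2.18 at 0.1 nM in pool 1. In pool 2 it was 2.45 with vehicle, 2.44 at 0.01 nM, 3.01 at 0.1 nM and 6.27 at 1 nM. Averaged over the 3 intermediate arrays the differences were 1.65 ± 1.58 for Cyp1b1 and 1.42 ± 1.09 (SE) for Aldh3a1, and for both genes the 0.1 nM array of pool 1 was below its vehicle array. Without the array at 1 nM, the difference of Cyp1b1 turned to -0.12.

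**Figure D1:**
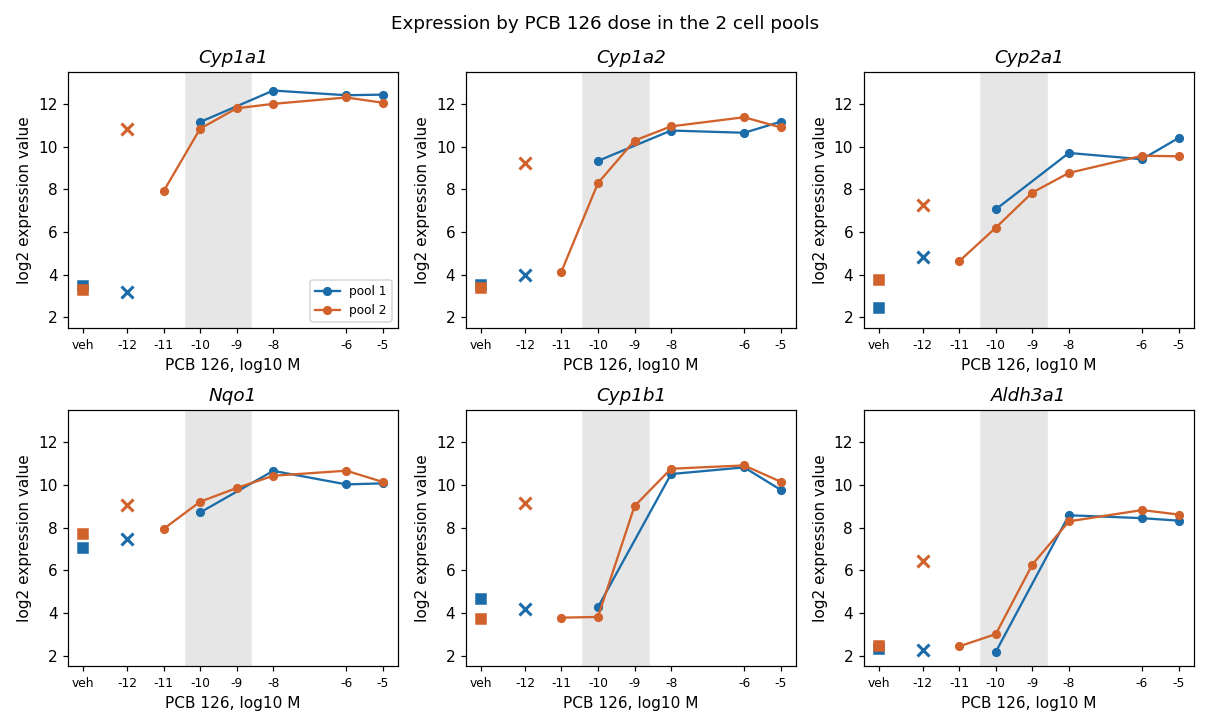
Log2 expression value of 6 genes by log10 molar dose of PCB126. Squares at the left are the vehicle arrays, connected points the arrays from -11 to -5, crosses the arrays at -12 that the comparison leaves out, and each mark is 1 array of pool 1 (blue) or pool 2 (orange); the grey band covers 0.1 and 1 nM. Cyp1a1 is at 7.91 already at -11, while Cyp1b1 stays at 3.81 at -10 and reaches 9.0 at -9 in pool 2.

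The remaining measured members of the AhR battery were Ugdh, which makes the sugar donor for glucuronidation, and Nfe2l2, the NRF2 factor of the antioxidant response. Ugdh was 6.46 with vehicle and 6.90 at 0.1 nM in pool 1, and 7.63, 7.51, 7.90 and 8.10 with vehicle and at 0.01, 0.1 and 1 nM in pool 2. Nfe2l2 was 8.97 and 9.22 in pool 1 and 9.15, 9.18, 9.25 and 9.49 in pool 2, in the same order. Both were higher in each intermediate array of a pool than in each baseline array of it, by 0.43 ± 0.12 and 0.22 ± 0.10 (SE) on average.

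In all, 7 of the 11 listed battery members were measured through probe sets that name 1 gene. For 5 of the 7 the arms did not overlap within either pool, all of them higher at the intermediate doses, and the median difference over the 7 was 1.65. That median is the value of Cyp1b1, and without the 1 nM array it was 0.37, with the same count of 5. Among all 3034 genes tested, 8.97% were higher in this way and 21.6% were lower, with a median difference of -0.03. The split between higher and lower depends on how arrays are scaled: with each array centred on its median, 437 genes were higher and 275 lower, in place of 272 and 656, while the battery kept 5 higher and 0 lower.

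The limma test of the 6 arrays, with the pool as a block and 3 residual degrees of freedom, called 0 of 5197 probe sets at an adjusted p of 0.05 (percent called: 0), and 407 had an unadjusted p below 0.05, 208 of them higher. To use the spread of the other arrays, a model of 24 arrays in 14 groups with the pool as a term was added after the data were seen. Its error comes from the groups measured in both pools and is the disagreement of the pools on differences between groups. The model left out the same 2 arrays at 0.001 nM as the selection rule. The pool 2 array of these stood out in Cyp1a1, Cyp1a2, Cyp1b1, Aldh3a1, Cyp2a1 and Nqo1, which the model then tests. Leaving it out takes its values out of the error, so the p values of these genes depend on that choice. The same holds for every other contrast in the model of 24 arrays. In this model, 14 probe sets were called (0.269%), all higher at the intermediate doses. Of these, 7 name 1 gene, 6 list several genes, which are not named here, and 1 has no listed gene.

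In that model, Cyp1a1 rose by 6.38 ± 0.43 (SE, adjusted p = 4.2e-06) and Cyp1a2 by 5.61 ± 0.40 (adjusted p = 4.3e-06), and both kept their calls with each of the 6 arrays left out in turn. Cyp2a1 (adjusted p = 0.026) and Nqo1 (adjusted p = 0.034) were called too, and a probe set of Cyp1b1 other than the brightest. The call of Cyp2a1 was lost without the 1 nM array (adjusted p = 0.248), either vehicle array (0.179 and 0.054) or the 0.1 nM array of pool 1 (0.103). That of Nqo1 was lost without any array but the one at 0.01 nM, with adjusted p values of 0.069 to 0.377. On centred arrays both were at 0.069. With eBayes run without trend and robust, Cyp2a1 was at 0.059 and Nqo1 at 0.061, and without the filter on dim probe sets Cyp2a1 was at 0.123. When the 2 arrays at 0.001 nM were kept in the model, it called 0 probe sets, with a smallest adjusted p of 0.054.

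Single doses were set against vehicle in the same model of 24 arrays, also added after the data were seen. The doses of 0.01 and 1 nM are 1 array each, assumed here to vary like the other groups. At 0.01 nM, 1 probe set was called (0.0192%), Cyp1a1, by 4.58 ± 0.66 (SE, adjusted p = 0.039), and this call was lost without either vehicle array (adjusted p = 0.109 and 0.255) and on centred arrays (0.150). At 0.1 nM, 10 were called (0.192%), among the named genes Cyp1a1 (7.63 ± 0.53, adjusted p = 5.7e-06) and Cyp1a2 (5.35 ± 0.49, adjusted p = 1.1e-04). At 1 nM, 15 were called (0.289%), and Cyp1b1 (4.92 ± 0.50, adjusted p = 1.3e-04) and Aldh3a1 (3.58 ± 0.65, adjusted p = 0.027) joined these 2 genes. The call of Aldh3a1 was lost without either vehicle array (adjusted p = 0.054 and 0.185) and on centred arrays (0.069).

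The step from 0.1 to 1 nM was itself tested, since the doses differ in what they call. Only Cyp1b1 was called, on 3 probe sets of 5197 (0.0577%), and its brightest rose by 5.06 ± 0.50 (SE, adjusted p = 3.5e-04). Aldh3a1 differed by 3.36 ± 0.65, which did not pass (adjusted p = 0.184), and Cyp1a1 by 0.83 ± 0.66 (adjusted p = 1.00). With all 26 arrays in the model none of these 4 dose contrasts called a probe set.

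How much of the full response was in place was measured against the mean of the higher doses, 10 nM, 1 µM and 10 µM, in the same pool, on the log2 scale. Cyp1a1 had 52.4% of its log2 difference from vehicle at 0.01 nM and 85.5% at 0.1 nM in pool 2, and 85.2% at 0.1 nM in pool 1. Cyp1a2 had 63.8% at 0.1 nM in pool 2 and 79.2% in pool 1, and Nqo1 55.8% and 51.8%. Cyp1b1 had 1.6% and Aldh3a1 9.1% at 0.1 nM in pool 2, but 76.8% and 62.4% at 1 nM. The lines between neighbouring doses of pool 2 crossed the midpoint at 0.0555 nM for Cyp1a2, 0.0752 nM for Nqo1, 0.155 nM for Cyp2a1, 0.44 nM for Cyp1b1 and 0.586 nM for Aldh3a1. For Cyp1a1 the midpoint was already passed at 0.01 nM. The vehicle values of Cyp1a1, Cyp1a2 and Aldh3a1, and of Cyp1b1 and Cyp2a1 in 1 pool each, lie below the filter value of 3.71. There the processing can distort differences, so the shares, the midpoints and their order also depend on that floor. These positions come from 1 array a dose and carry no error of their own, so it was not tested whether the genes differ in position.

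**Figure D2:**
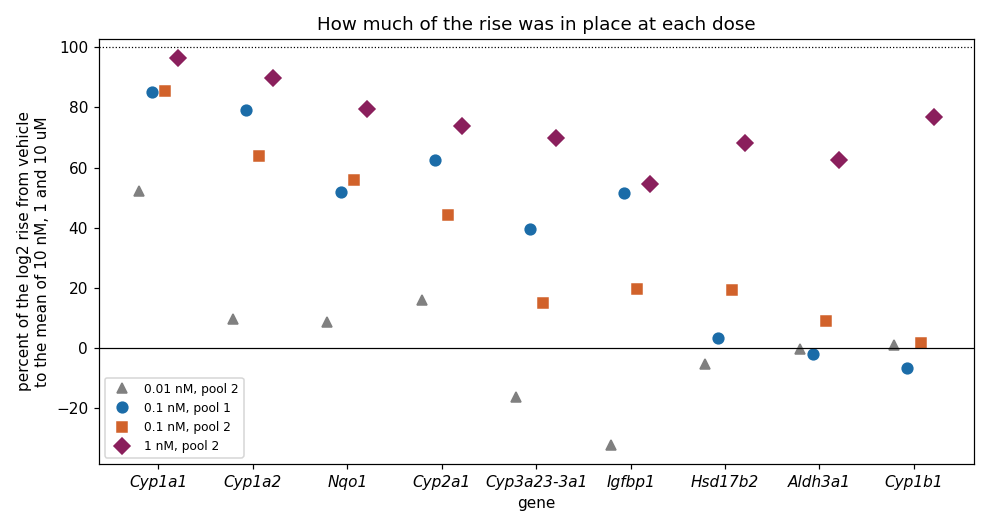
Share of the log2 rise from vehicle to the mean of the 10 nM, 1 µM and 10 µM arrays of the same pool that was reached at 0.01, 0.1 and 1 nM, for 9 genes; each mark is 1 array. At 0.1 nM in pool 2 the share runs from 85.5% for Cyp1a1 to 1.6% for Cyp1b1, and at 1 nM it runs from 54.7% for Igfbp1 to 96.3% for Cyp1a1; the 9 genes were chosen after their values were seen.

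Of the list of the receptor, its partners and chaperones, 5 of 10 genes were measured and none passed the test in either model. Ahr, the receptor, was 0.40 ± 0.21 (SE) and Hif1a, another factor that pairs with Arnt, 0.25 ± 0.17 higher at the intermediate doses without overlap, and Arnt2 was 0.17 ± 0.10 lower. Arnt and the chaperone Hsp90ab1 overlapped between the arms. Ahr was 5.0 with vehicle and 5.19 at 0.1 nM in pool 1, and 3.89, 4.55, 4.56 and 4.89 with vehicle and at 0.01, 0.1 and 1 nM in pool 2.

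By a rule added after the data were seen, the larger differences were collected: arms that do not overlap within either pool, with a difference of at least 1 log2. It held for 15 genes that were higher (0.494% of 3034) and 5 that were lower (0.165%), and the direction and the separation of all 20 were the same with arrays centred on their medians, with vehicle alone as the baseline and without the 1 nM array. Their sizes moved more: 18 of the 20 still differed by at least 1 log2 in each of the first 2 settings and 13 without the 1 nM array. Without that array the difference was -0.54 for Acta1, -0.57 for Tagln, 0.43 for Hsd17b2 and 1.22 for Cxcl6, and Avpr1a, Ccl2, Igfbp1 and Pde4b were between 0.82 and 0.99 in size. Of these 20, Cyp1a1, Cyp1a2, Cyp2a1 and Nqo1 passed the test in the model of 24 arrays.

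Among the other 11 higher genes, metabolic ones were Cyp3a23-3a1, a P450 of the pregnane receptor pathway, Slc17a1, a phosphate and anion transporter, Igfbp1, a secreted binding protein of insulin-like growth factors, Hsd17b2, which inactivates sex steroids, and Man2a1, a Golgi mannosidase. Cyp3a23-3a1 was 4.77 with vehicle and 6.46 at 0.1 nM in pool 1, and 5.69, 5.13, 6.21 and 8.08 with vehicle and at 0.01, 0.1 and 1 nM in pool 2. The highest value was that at 1 nM, and the difference was 1.72 ± 0.48 (SE, adjusted p = 0.526).

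Slc17a1 was 3.61 and 4.52 in pool 1 and 5.38, 5.38, 6.52 and 7.91 in pool 2, in the same order. Igfbp1 was 6.61 and 8.14 in pool 1 and 8.59, 8.08, 8.91 and 9.47 in pool 2. The pools started from different levels of Igfbp1, and the difference within pool 1 was the larger. Hsd17b2 was 3.39 and 3.45 in pool 1 and 3.50, 3.33, 4.13 and 5.71 in pool 2, so that nearly all of its difference lay in pool 2. The baseline values of Hsd17b2, and the vehicle value of Slc17a1 in pool 1, lie below 3.71, where the processing can distort differences.

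The other 6 were inflammatory or early response genes: the chemokines Cxcl6, Cx3cl1 and Ccl2, the early response gene Ier3, Zfp36, which destabilises cytokine mRNAs, and the phosphodiesterase Pde4b. Ccl2 was 9.27 with vehicle and 9.81 at 0.1 nM in pool 1, and 7.55, 7.80, 8.72 and 9.58 with vehicle and at 0.01, 0.1 and 1 nM in pool 2. Cx3cl1 was 6.44 and 7.96 in pool 1 and 5.88, 5.71, 6.47 and 7.22 in pool 2. Pde4b was 3.95 and 5.13 in pool 1 and 4.25, 4.42, 5.11 and 5.88 in pool 2. In pool 2 the 1 nM array was the highest for all 3 genes.

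Ier3 and Zfp36 differed mostly in pool 1, where Ier3 was 5.20 with vehicle and 7.99 at 0.1 nM and Zfp36 was 3.52 and 6.13. In pool 2 Ier3 was 7.06, 7.38, 7.78 and 8.34 with vehicle and at 0.01, 0.1 and 1 nM, and Zfp36 was 6.26, 6.5, 6.71 and 6.69. The vehicle array of pool 1 is thus the lowest of the 6 for both genes, and their differences rest largely on it. For Zfp36 that array lies below the filter value of 3.71. Cxcl6 was dim in the vehicle arrays too, at 2.85 and 1.5. At such values the processing can distort differences.

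The 5 lower genes were Lox, a collagen cross-linking enzyme, Acta1 and Tagln, which are actin and an actin-binding protein of contractile cells, Sult1b1, a sulfotransferase, and Avpr1a, a vasopressin receptor. Lox was 5.69 with vehicle and 5.40 at 0.1 nM in pool 1, and 6.77, 6.74, 5.16 and 4.28 with vehicle and at 0.01, 0.1 and 1 nM in pool 2, a difference of -1.45 ± 0.41 (SE, adjusted p = 0.526). Acta1 was 10.16 and 9.77 in pool 1 and 10.87, 10.76, 10.16 and 8.30 in pool 2, a difference of -1.18 ± 0.51. Sult1b1 was 7.33 and 6.44 in pool 1 and 8.69, 7.30, 6.90 and 6.73 in pool 2, a difference of -1.09 ± 0.36. For Lox and Acta1 the 1 nM array was the lowest of the 6, and Sult1b1 and Avpr1a were already lower at 0.01 nM than with vehicle in pool 2.

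**Figure D3:**
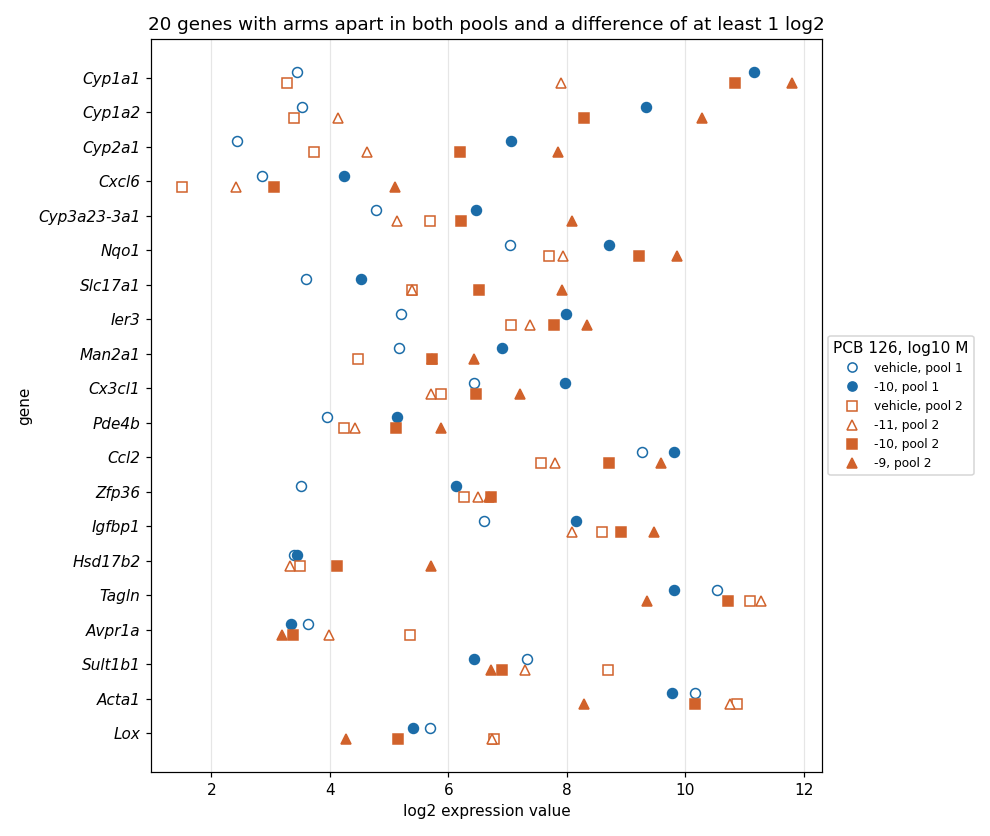
Log2 expression value in each of the 6 arrays for the 20 genes whose arms did not overlap within either pool and differed by at least 1 log2. Open marks are baseline arrays and filled marks intermediate ones, in blue for pool 1 and orange for pool 2; Cyp1a1, Cyp1a2 and Cyp2a1 show the widest gaps, of 6.38, 5.61 and 3.43 log2 on average.

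Named by the smallest unadjusted p instead, 10 genes were higher and 10 lower, and apart from the genes above none passed in either model. Mettl7b, a lipid droplet protein of liver, was 7.63 with vehicle and 8.63 at 0.1 nM in pool 1, and 7.77, 8.13, 8.81 and 9.07 with vehicle and at 0.01, 0.1 and 1 nM in pool 2, a difference of 0.99 ± 0.14 (SE, adjusted p = 0.416). Lcn2, an acute phase lipocalin, Ctsl, a lysosomal protease, Gch1, the first enzyme of biopterin synthesis, and Trappc6b, a vesicle-tethering subunit, were between 0.47 and 0.62 higher. On the lower side Ccnd1, the cyclin of G1 phase, had the widest difference. It was 4.90 and 4.61 in pool 1 and 5.69, 5.53, 4.57 and 4.28 in pool 2, a difference of -0.88 ± 0.21 (SE, adjusted p = 0.490). Slc37a4, the glucose 6-phosphate transporter, differed by -0.66 ± 0.15, Pak1, a kinase of the cytoskeleton, by -0.60 ± 0.14, and Tmem120a by -0.53 ± 0.10. Usp19, Actb, Cntfr, Hspa1a, Kctd15 and Nup155 lay between -0.31 and -0.19.

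The gene lists were then read against the 8.97% of genes that were higher and the 21.6% that were lower without overlap in both pools. No list has a test here. Of 26 measured genes of the other P450 families, the reductase Por included, 3 were higher, Cyp2a1, Cyp3a23-3a1 and Cyp2a2, and 15 were lower, with a median of -0.14; on centred arrays 10 were lower. Cyp2c7 and Cyp2c12, female-predominant hydroxylases of rat liver, were among the lower ones. Cyp2c7 was 8.11 and 7.18 in pool 1 and 8.71, 8.70, 8.25 and 7.21 in pool 2, a difference of -0.96 ± 0.27 (SE, adjusted p = 0.526). Cyp2c12 was 8.93 and 8.36 in pool 1 and 9.56, 9.07, 8.77 and 8.03 in pool 2, a difference of -0.80 ± 0.24. In both genes the 1 nM array was the lowest of pool 2.

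Conjugating enzymes were mixed. Of 13 UDP-glucuronosyltransferases and sulfotransferases measured through probe sets with 1 gene, 0 were higher and 6 lower, which became 1 and 2 on centred arrays. Of 13 glutathione S-transferases, 3 were higher, Gsta4 by 0.68 ± 0.19, Gsta3 by 0.60 ± 0.19 and Gstp1 by 0.44 ± 0.15 (SE), and 1 was lower, Mgst2. Of 16 genes of the NRF2 and glutathione list, 4 were higher and 1 lower.

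Acute phase and complement genes leaned to the higher side, with 13 of 32 higher and 2 lower and a median of 0.22; on centred arrays the counts were 17 and 1. Lcn2 was 13.12 and 13.90 in pool 1 and 12.99, 13.02, 13.31 and 13.54 in pool 2. C9, of the membrane attack complex, was 10.91 and 11.21 in pool 1 and 10.09, 10.13, 10.79 and 10.99 in pool 2. The fibrinogen chain Fgb was 0.29 ± 0.07 higher and the protease inhibitor Pzp 0.39 ± 0.08 (SE) higher. The differences of the 32 ran from -0.69 to 0.62.

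Of 27 chemokine and cytokine genes, 7 were higher and 6 lower, and of 31 growth signalling genes 9 were higher and 4 lower. Ribosomal protein genes were higher in 9 of 36 and lower in 0, by small amounts, with a median of 0.08. Of 12 cell cycle genes 0 were higher and 5 lower, which became 2 on centred arrays. Fatty acid oxidation (2 higher and 7 lower of 21) stood closer to the background.

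Contractile and actin cytoskeleton genes were higher in 1 of 31, Pfn1, and lower in 10; on centred arrays the counts were 3 and 8. Myl9, a myosin light chain, was 6.65 and 6.36 in pool 1 and 7.51, 7.17, 6.48 and 5.52 in pool 2, a difference of -1.0 ± 0.34 (SE). Tagln was 10.53 and 9.81 in pool 1 and 11.09, 11.28, 10.72 and 9.35 in pool 2. Actb, cytoplasmic actin, was 13.83 and 13.59 in pool 1 and 13.97, 13.91, 13.68 and 13.61 in pool 2.

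Some of these genes also mark stellate cells and fibroblasts. Of 12 such markers measured, 0 were higher and 7 lower (4 on centred arrays), Acta2, Col3a1, Fn1, Lum, Ngfr, Tagln and Vim. The log2 of the summed level of the stellate list ran from 13.00 to 13.45 in the baseline arrays and from 13.03 to 13.17 in the intermediate ones, ranges that overlap. For macrophage markers it ran from 9.41 to 10.06 and from 9.68 to 10.42. For hepatocyte markers it ran from 15.67 to 15.70 and from 15.75 to 15.87, which do not overlap. The mean log2 value of the same hepatocyte markers ran from 10.03 to 10.25 and from 10.18 to 10.38, ranges that do overlap. The part of other cell types in the results was not tested, and in bulk RNA fewer cells of a type and less RNA per cell cannot be told apart. The actin 3′ minus 5′ signal, a measure of RNA quality, ran from 0.92 to 1.67 in the baseline arrays and from 0.86 to 1.44 in the intermediate ones.

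**Figure D4:**
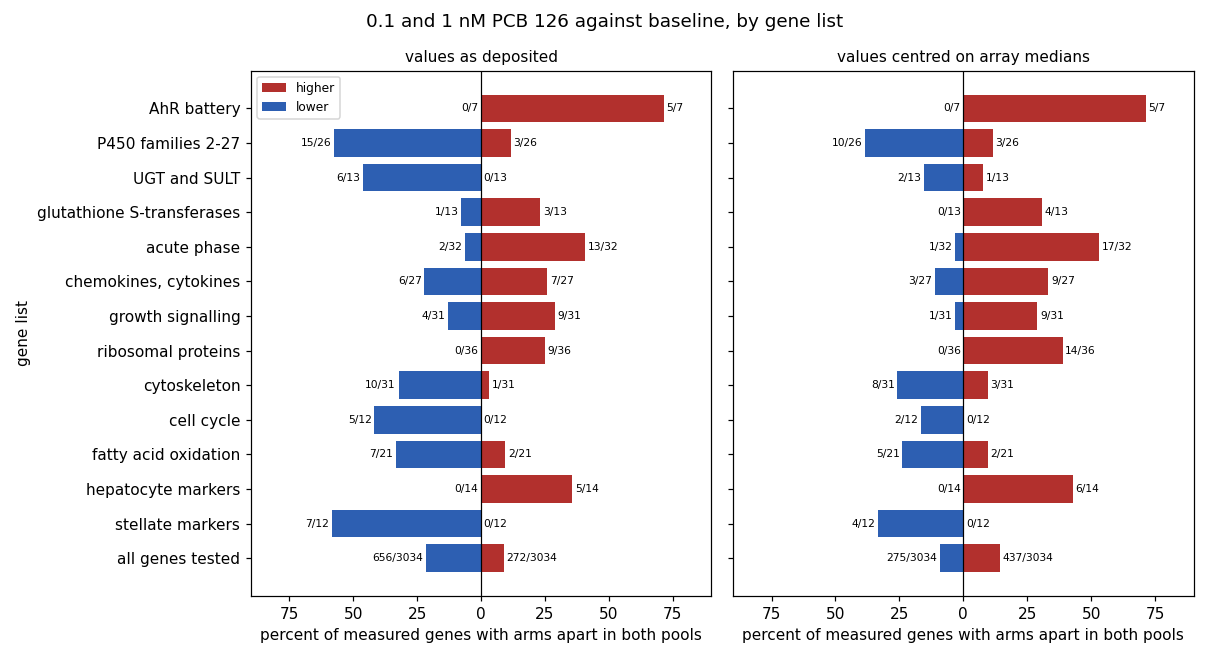
Percent of the measured genes of each list that were higher (red, to the right) or lower (blue, to the left) at 0.1 and 1 nM without overlap of the arms in either pool, with the counts beside the bars, for the deposited values and for arrays centred on their medians. All genes tested are the bottom bar, 272 higher and 656 lower of 3034 as deposited and 437 and 275 when centred, and the AhR battery has 5 of 7 higher in both panels.

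The profile of Cyp1a1 over the 12 PCB126 arrays and 2 vehicle arrays, after pool means were subtracted, was most like that of Cyp1a2 (Pearson r = 0.957), Aldoa (0.946), a glycolytic enzyme, Nqo1 (0.919), Cyp2a1 (0.915) and Ifnar1 (0.915), a chain of the interferon receptor. These are descriptions over 14 arrays that share their pools. They include the arrays at 0.001 nM. Aldoa was 8.19 and 8.62 in pool 1 and 8.79, 9.23, 9.33 and 9.56 in pool 2, a range far narrower than that of Cyp1a1.

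The distance that remained to the higher doses was measured by setting the 6 arrays at 10 nM, 1 µM and 10 µM against the same 3 intermediate arrays. Cyp1a1 was 1.01 ± 0.20 and Nqo1 1.13 ± 0.22 (SE) higher at the higher doses, neither past the test (adjusted p = 0.061 for both), and Cyp1a2 1.68 ± 0.35 higher (adjusted p = 0.082). In the model of 24 arrays Cyp1a2 was called only through a probe set other than its brightest. The widest gap that passed was that of Aldh3a1, whose higher-dose values ran from 8.29 to 8.82. It rose by 4.83 ± 0.64 (SE, adjusted p = 0.021), and by 4.79 ± 0.37 (adjusted p = 5.4e-06) in the model of 24 arrays. Cyp1b1, at 9.77 to 10.91 at the higher doses, differed by 4.92 ± 1.00 (adjusted p = 0.10), and rose by 4.75 ± 0.29 (adjusted p = 2.9e-07) in the model of 24 arrays.

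This comparison called 27 probe sets of 5197 (0.52%), 20 higher and 7 lower at the higher doses, and among genes 11 higher and 3 lower of 3034 (0.461%). It does not share the baseline arrays, but it shares the intermediate ones with the comparison above. Pon1, a serum esterase made by liver, rose by 1.42 ± 0.17 (adjusted p = 0.021) and Apob, the protein of very low density lipoprotein, by 1.32 ± 0.23 (adjusted p = 0.049). Pon1 was 8.84 to 9.48 in the 3 intermediate arrays and 10.48 or above at the higher doses, without overlap. Its baseline arrays, at 8.61, 8.88 and 8.65, overlapped the intermediate ones in pool 2.

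Cyp2a1 (2.46 ± 0.36), Hal (1.58 ± 0.24), which degrades histidine, Igfbp1 (1.18 ± 0.18), Cyp2a2 (1.18 ± 0.22), the mitochondrial Sod2 (1.06 ± 0.19), Tat (1.03 ± 0.15), which degrades tyrosine, Cebpb (0.97 ± 0.18), a liver transcription factor, and Anxa5 (0.78 ± 0.14, SE) rose too, with adjusted p values of 0.034 to 0.050. Mug1, a protease inhibitor, Tsx and Ambp, a plasma protein precursor, fell by 1.72, 1.04 and 0.67. These calls hung on the scaling and on single arrays. With arrays centred on their medians, 0 probe sets were called in the 9 arrays and 12 in the model of 24. As deposited, the model of 24 arrays called 27 and that of all 26 called 23. The 27 of the model of 24 arrays are not the same probe sets. Cyp2a1, Igfbp1, Sod2, Anxa5, Mug1 and Ambp were not called there, and Cebpb only through a probe set other than its brightest. Cyp1b1, Cyp3a23-3a1, A2m, Acta1 and Myl9 were called there but not in the 9 arrays, by their brightest probe sets. In the 9 arrays, leaving out either array at 0.1 nM left 0, and leaving out the 1 nM array gave 57. Aldh3a1, Apob and Pon1 stayed called in the model of 24 arrays, centred or not and with each of the 9 arrays left out in turn, as did Cyp1b1.

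Of the AhR battery, 5 of 7 genes were higher at the higher doses and 0 lower without overlap in either pool, with a median of 1.13, against 4.02% higher and 5.21% lower among the 3034 genes. Contractile genes were higher in 2 and lower in 7 of 31.

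Several genes of the lower group stood lower still at the higher doses. Acta1 was at 5.53 to 7.49 at the higher doses, against 8.30 to 10.16 at the intermediate ones, a difference of -2.39 ± 0.50 (SE, adjusted p = 0.082). Tagln differed by -1.74 ± 0.45, Myl9 by -1.51 ± 0.33, Cyp2c12 by -1.71 ± 0.34 and Cyp2c7 by -1.46 ± 0.29, none past the test in these 9 arrays. In the model of 24 arrays Acta1 and Myl9 fell (adjusted p = 0.022 for both), and both calls were lost without either array at 0.1 nM, with adjusted p values of 0.218 to 0.458. That of Acta1 was also lost without the 10 µM array of pool 1 (0.074) or the 1 µM array of pool 2 (0.056), and that of Myl9 on centred arrays (0.059). For other genes the difference between intermediate and higher doses was small and did not pass: Ier3 by 0.13 ± 0.19, Zfp36 by 0.16 ± 0.14, Lox by -0.36 ± 0.19 and Ccnd1 by -0.11 ± 0.13.

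TCDD was compared with PCB126 at the same molar doses and in the same pools, 0.1 nM in both pools and 1 nM in pool 2, which gave 3 matched sets. The difference of the chemicals was largest in the genes that PCB126 had not yet induced at 0.1 nM. With TCDD, Cyp1b1 was 9.37 and 10.07 at 0.1 nM in pools 1 and 2 and 10.82 at 1 nM in pool 2, against 4.27, 3.81 and 9.0 with PCB126. Aldh3a1 was 5.37, 8.10 and 8.54 with TCDD, against 2.18, 3.01 and 6.27. In each set the TCDD array was the higher. The comparison shares the PCB126 arrays with those above.

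With pool and dose as terms and 2 residual degrees of freedom, limma called 0 of 5197 probe sets (percent called: 0), with 414 below an unadjusted p of 0.05 and a smallest adjusted p of 0.084, for Pla2r1, a phospholipase receptor. The difference of Pla2r1 was 2.13 ± 0.14 (SE). The model of 24 arrays called 10 (0.192%), of which 9 name 7 genes and 1 has no listed gene, and 6 were called with all 26 arrays in the model. By the brightest probe set of each gene, all 26 arrays called 3 genes higher with TCDD and 2 lower, so not all of the 7 kept their calls there. Cyp1b1 was higher with TCDD by 4.39 ± 0.33 (SE, adjusted p = 5.0e-06) and Aldh3a1 by 3.52 ± 0.42 (adjusted p = 0.0011). Pon1 (1.38 ± 0.22, adjusted p = 0.017), Apob (1.36 ± 0.16, adjusted p = 0.0011) and Cyp2a2 (1.31 ± 0.23, adjusted p = 0.037) were higher with TCDD as well. A2m, the alpha-2-macroglobulin of the rat acute phase (-2.19 ± 0.35, adjusted p = 0.018), and Acta1 (-2.74 ± 0.48, adjusted p = 0.034) were lower.

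Cyp1b1 and Apob kept these calls with each of the 6 arrays left out in turn, and the other 5 lost theirs without at least 1 array. On centred arrays Cyp2a2 (adjusted p = 0.074) and Pon1 (0.091) lost theirs, and Acta1 did without the filter (0.078) and with plain eBayes (0.058). The number of probe sets called ran from 5, without either PCB126 array at 0.1 nM, to 116 without the TCDD array at 0.1 nM of pool 2. Acta1 was 6.58, 6.96 and 6.46 with TCDD at 0.1 nM in pools 1 and 2 and at 1 nM in pool 2, against 9.77, 10.16 and 8.30 with PCB126. A2m was 4.04, 6.29 and 6.53, against 7.46, 8.59 and 7.39. TCDD was the lower in each set for both genes.

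Of the 7 battery genes, 5 were higher with TCDD and 0 lower without overlap in either pool, with a median of 1.38; of all 3034 genes, 26.5% were higher and 17.7% lower. Of the 31 contractile genes 3 were higher and 15 lower, and of the 36 ribosomal protein genes 0 were higher and 17 lower, with medians of -0.25 and -0.18.

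Of the genes that PCB126 had already induced, Cyp1a1, Cyp1a2, Nqo1 and Cyp2a1 differed by less than Cyp1b1 and Aldh3a1 did. None of them passed the test, so the chemicals are not shown to differ there, nor to act alike. The differences of Cyp1a2 and Cyp2a1 were still larger than those of Pon1, Apob and Cyp2a2, which passed. In the model of 24 arrays the 95% interval of TCDD minus PCB126 was 0.09 to 1.95 log2 for Cyp1a1 (1.02), 0.78 to 2.52 for Cyp1a2 (1.65), 0.71 to 2.05 for Nqo1 (1.38) and 0.97 to 3.56 for Cyp2a1 (2.27), with adjusted p values from 0.122 to 0.431. These intervals leave out 0, but each is for a single gene. Unlike the adjusted p values, they do not allow for the 5197 probe sets tested. Cyp1a1 was 12.29, 12.16 and 12.39 with TCDD, against 11.15, 10.84 and 11.79. For genes such as Ier3 (-0.96 to 0.83), Zfp36 (-1.11 to 0.64), Lox (-0.99 to 0.49), Ccnd1 (-0.66 to 0.54) and Ctsl (-0.25 to 0.22), the interval held 0.

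**Figure D5:**
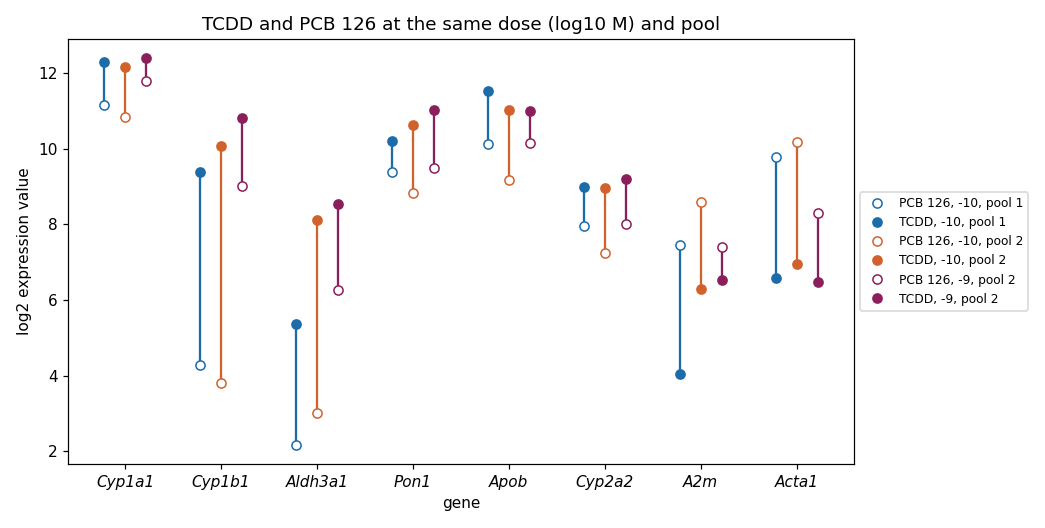
Log2 expression value of 8 genes with PCB126 (open) and TCDD (filled) at the same dose and pool, joined by a line; each mark is 1 array. For Cyp1b1 the TCDD arrays at 0.1 nM are at 9.37 and 10.07 and the PCB126 arrays at 4.27 and 3.81, while for A2m and Acta1 the TCDD array is the lower of each set.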

How the data were processed

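RNA of cultured rat hepatocytes was measured on 26 Affymetrix rat expression arrays. The authors deposited 1 table of log2 expression values for 8799 probe sets, from -1.43 to 15.01, made with GCRMA, per the submitters' processing notes, which also name RMA; the settings were not given in the sources used here. Background correction can distort differences of dim probe sets. All 26 columns were matched to samples by title, and 0 columns were without a sample. After 59 control probe sets were dropped, a probe set was kept if at least 2 arrays exceeded 3.71, the median of the remaining values, which left 5197. Of the 8740 other probe sets, 7006 list 1 gene symbol, 308 several and 1426 none, in GEO's platform annotation. Of these 7006, the Entrez numbers of 6985 matched the RefSeq table, which changed 0 symbols. Genes are represented by their probe set of highest mean, which gave 3034 genes.

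Differences were fitted with limma 3.58.1 in R 4.3.3 (lmFit, then eBayes with trend and robust) and adjusted by the Benjamini-Hochberg method over all 5197 probe sets, with a threshold of 0.05. The fits were also run on simulated data with independent errors sized from the model of 24 arrays, as a check of the code only. No result here rests on that run. The pool was a block in every comparison, since a pool is the same animals: over the 11 groups with both pools, same-pool arrays deviated together with correlations of 0.461 to 0.892. Named were, per direction, up to 15 called genes with the largest difference, filled to 10 by the smallest unadjusted p, the AhR battery, and up to 4 genes of each list, all with the same sign in both pools outside the lists. The members and gene lists were chosen with earlier results of these data known. The model of 24 arrays, the single doses, the non-overlap counts and the rule of at least 1 log2 were added after the data were seen. Alternatives changed the pool term, the arrays fitted, the centring, the filter, the variance model, the baseline arrays and the doses, and left out each array in turn. Promoters are from RefSeq, build GRCr8. The number of arrays limits the precision.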

Additional observations from a re-analysis of the deposited data

Results flagged for a closer look

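The arrays at 0.001 nM PCB126 belong to neither arm of the comparisons above; they enter only the models of all 26 arrays, the likeness to Cyp1a1 and the alternatives that add them to the baseline. In pool 2, the array so labelled lay above the vehicle array of its pool in all 6 genes looked at: Cyp1a1 by 7.53 log2, Cyp1a2 by 5.82, Cyp1b1 by 5.44, Aldh3a1 by 4.0, Cyp2a1 by 3.52 and Nqo1 by 1.36. Its Cyp1b1 value was 9.14 and its Aldh3a1 value 6.45, levels that PCB126 otherwise reached at 1 nM or more in that pool. In pool 1, the array at 0.001 nM lay above its vehicle array in Cyp2a1, by 2.40 log2 at a value of 4.84. The cause of neither was tested.

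At 0.1 nM against vehicle the pools moved in opposite directions for 2 genes, and this difference was not tested. Cyp1b1 differed by -0.38 in pool 1 and 0.11 in pool 2, and Aldh3a1 by -0.12 in pool 1 and 0.56 in pool 2, on 1 array each.

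TCDD and PCB126 at matched doses differed in the model of 24 arrays for 7 named genes: Cyp1b1 (4.39), Aldh3a1 (3.52), Pon1 (1.38), Apob (1.36), Cyp2a2 (1.31), A2m (-2.19) and Acta1 (-2.74), in log2 as TCDD minus PCB126. All 7 had the same sign in both pools. On centred arrays the calls of Cyp2a2 and Pon1 were lost, and that of Acta1 without the filter or with plain eBayes.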

How the results depend on the processing

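The intermediate doses against baseline called 0 probe sets, and 0 with all 26 arrays, centred arrays, both 0.001 nM arrays added, pool 2 alone or plain eBayes. Without the replicate block the count was 2, without a filter 1, with the stricter filter 4, with the 0.001 nM array of pool 1 in the baseline 4, with vehicle alone as baseline 2, with 0.1 nM against vehicle alone 46, where 1 degree of freedom remains, and in 24 arrays 14. With 1 array left out it was 0 to 2, and 7 to 16 in 24 arrays. The higher doses against the intermediate called 27, which became 0 without the replicate block or on centred arrays, 43 with the stricter filter, 11 with plain eBayes, 1 with 10 nM alone, 0 with 1 and 10 µM alone and 0 to 57 with 1 array left out. In 24 arrays 27 became 12 on centred arrays and 6 to 43 with 1 array left out. TCDD against PCB126 called 0, and 6 in 26 arrays, 10 in 24 arrays, 99 at 0.1 nM alone and 0 to 100 with 1 array left out, or 5 to 116 in 24 arrays. Counts from fits with 1 or 2 degrees of freedom rest on few arrays.

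Against vehicle, 0.01 nM called 1, and 0 with 26 arrays, no replicate block, centred arrays, no filter or plain eBayes, and 0 to 3 with 1 array left out. At 0.1 nM the 10 calls became 0 with 26 arrays, 6 without the replicate block, 6 on centred arrays and 4 to 19 with 1 array left out. The 15 calls at 1 nM and the 3 of 1 against 0.1 nM became 0 with 26 arrays. The direction turned only in Cyp1b1 and Aldh3a1 at doses where they stood near vehicle. Cyp1b1 against baseline was -0.12 to 2.84 with 1 array left out, -0.14 with 0.1 nM against vehicle alone and -0.035 to 2.56 in 24 arrays with 1 left out, the lowest without the 1 nM array. At 0.01 nM Aldh3a1 was 0.062 without the replicate block, and Cyp1b1 was -0.77 to 0.076 with 1 vehicle array left out. At 0.1 nM, with 1 array left out, Cyp1b1 was -0.56 to 0.29 and Aldh3a1 -0.042 to 0.48. The cause of these changes was not tested.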
